A study of Mus musculus with 112 samples.

Results

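The 17 tumours with the most Mki67 mRNA were compared with the 17 tumours with the least, among mammary tumours induced by the polyoma middle T antigen (PyMT). Mki67 encodes Ki-67, a nuclear protein of cycling cells. The series holds 56 tumours, each measured on an MOE430A array (A) and on an MOE430B array (B), which are single-colour Affymetrix designs. The members were chosen by the measured Mki67 value on array A. For this, 52 tumours were ranked, after the tumours of subline 23 and tumour 3 of subline 25 had been left out, and 34 of the 52 entered the comparison. The 18 tumours in the middle of the ranking were set aside. Both groups had the same kind of origin. They were spontaneous mammary tumours of mice from crosses between AKXD sublines, recombinant inbred lines with AKR/J and DBA/2J as their founder strains, and carriers of PyMT under the mouse mammary tumour virus (MMTV) promoter, which is active mainly in mammary epithelium. The labels name no treatment, and give no age for either group. The Mki67-high group came from 12 sublines and the Mki67-low group from 12, and 8 of these sublines had tumours in both groups. The groups are ranges of a measured value and not groups of the study. Whole tumour tissue was measured, so fewer cells of a type and less RNA per cell cannot be told apart.

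Ki-67 coats chromosomes in mitosis and is made in all active phases of the cell cycle and not in resting cells, which is why pathologists count it as a measure of proliferation. Its transcript belongs to a large set that is silenced in resting cells by complexes of pocket proteins, and switched on in waves. Genes for origin licensing and DNA synthesis come first, under E2F factors, and genes for the spindle, the kinetochore and chromosome segregation follow before mitosis.

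Mki67 is described here with no test between the groups, since it chose the members. It was read by 1 probe set on array A and by 0 on array B. On the log2 scale the Mki67-high tumours ran from 10.10 over a median of 10.23 to 10.88, against 9.43 over 9.71 to 9.88 in the Mki67-low tumours. The mean was 10.30 ± 0.23 (SD, n = 17) in the Mki67-high tumours and 9.71 ± 0.14 (SD, n = 17) in the Mki67-low tumours, a difference of 0.59, or 1.51-fold. There was no gap in the ranking at either limit. The last tumour inside the Mki67-high group had 10.0984 and the first outside it 10.0957, and the first inside the Mki67-low group had 9.8799 and the last outside it 9.8963.

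**Figure D1:**
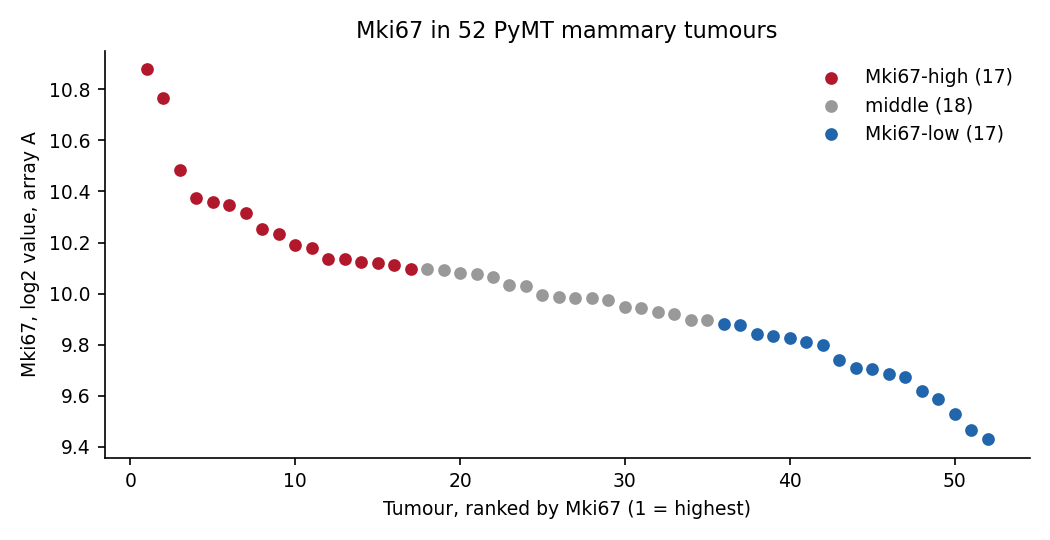
Log2 value of the Mki67 probe set on array A (y axis) for each of the 52 ranked tumours (x axis, rank 1 is the highest); red points are the 17 Mki67-high tumours, grey points the 18 middle tumours and blue points the 17 Mki67-low tumours. The values fall without a break at either limit, and the 2 highest tumours lie at 10.88 and 10.77, above the third at 10.48.

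Sublines differed in how far their tumours spread over the ranking. The mean of Mki67 ranged over 17 sublines from 9.82 in subline 9 to 10.34 in subline 27. Tumours of subline 27 differed the most among themselves, with an SD of 0.50. The 3 tumours of subline 22, all Mki67-low, differed the least, with an SD of 0.035. In limma's moderated F test among the sublines, Mki67 had an adjusted p of 0.832. Of 173 cell cycle genes on array A, 3 differed in that test at an adjusted p under 0.05. That share was close to the 1.74% of all probe sets. At an unadjusted p under 0.05 there were 22 of the 173, and the share over all probe sets was not counted at that threshold. High and low tumours of 1 subline share their inherited background, and the 8 sublines with both therefore give a comparison of their own, used below.

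Array quality was similar in range among the ranked tumours. The 4 tumours left out of the ranking had median correlations of 0.223 to 0.948 with the others on array A. Within the ranked tumours it was between 0.970 and 0.991 over both array types, apart from 1 array B that is described with the results of that array. The control probe sets for the 3′ and 5′ ends of Gapdh, a check of RNA integrity, differed by -0.16 in the median Mki67-high tumour and -0.19 in the median Mki67-low tumour on array A, with ranges of -0.27 to 0.19 in the Mki67-high group and -0.28 to 0.09 in the Mki67-low group. The 2 tumours with the most Mki67, at 10.88 and 10.77, had 0.12 and 0.09 in this measure. With it as a covariate, 976 probe sets were called higher and 320 lower on array A, and 96 of the 154 cell cycle genes described below were called higher. One tumour stood apart, tumour 1 of subline 21 in the Mki67-low group. Its mean log2 value over 20 luminal epithelial genes was 9.37 on array A. The Mki67-high tumours lay between 10.03 and 10.29, and the other Mki67-low tumours between 9.93 and 10.29. Calls of the genes described that change without it are given beside them.

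On array A, 2394 of 22625 probe sets (10.6%) differed, 1528 of them higher (6.75%) and 866 lower (3.83%) in the Mki67-high tumours at an adjusted p under 0.05, the threshold for a call. With each array centred on its median, the split was 1770 higher and 553 lower. Differences are log2 values, Mki67-high minus Mki67-low, fitted with the subline as a random block, so they can depart slightly from the difference of the group means. For lists of genes, each gene was read by its brightest probe set. By that rule 11.9% of 12392 genes were called, 7.59% higher and 4.28% lower. A positive difference was found in 5444 genes, and the median gene differed by -0.02.

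Cell cycle genes were called far more often than that. Of 154 measured genes of the cell cycle outside the inhibitors, 106 were higher in the Mki67-high tumours, 0 were lower and 147 had a positive difference, with a median of 0.24. Their mean log2 level ran from 8.63 over 8.77 to 9.05 in the Mki67-high tumours and from 8.35 over 8.55 to 8.76 in the Mki67-low tumours. For 46 of the 154 genes (29.9%) all 17 Mki67-high tumours lay above the median of the Mki67-low tumours, against 1.78% of all genes. Without tumour 1 of subline 21, 100 of the genes were called higher. The ranking and these values come from the same hybridisation, whereas array B, described further on, is a separate one.

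**Figure D2:**
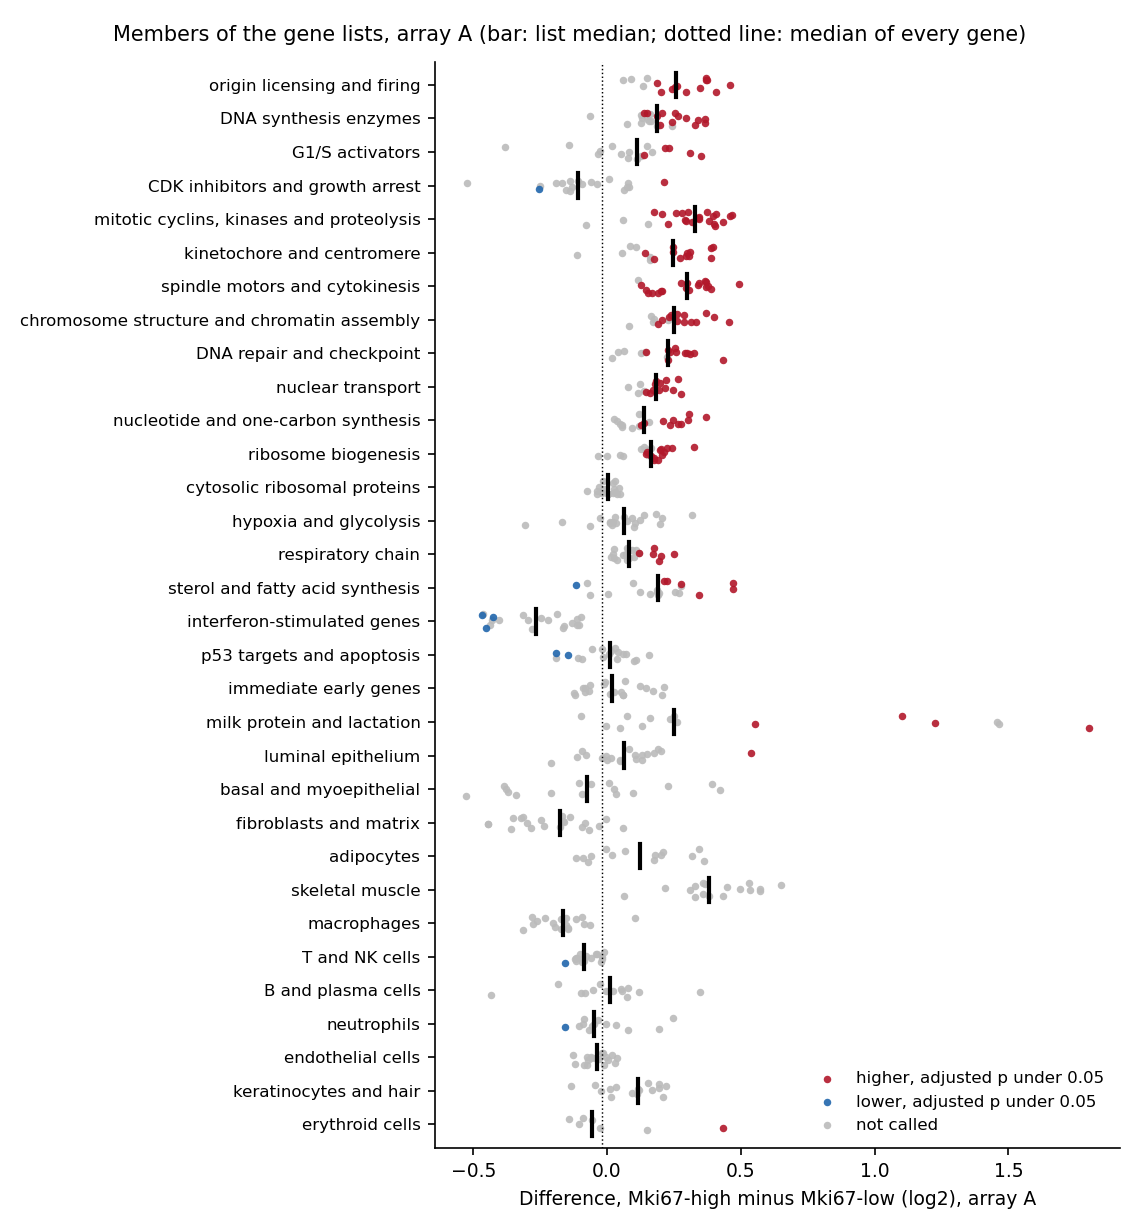
Difference between Mki67-high and Mki67-low tumours (x axis, log2, array A) for every measured member of the 32 gene lists (rows), with called members in red or blue, others in grey, and the list median as a bar. The medians of the 8 lists of cell cycle genes other than inhibitors lie to the right of the dotted median of every gene, that of ribosomal proteins lies close to it, and that of interferon-stimulated genes lies to its left.

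Promoters of Mki67 and of 4 called genes are shown, since cell cycle genes share motifs there. Sequences are from RefSeq (GRCm38.p6), cover the 200 bases before the annotated start, and read 5′ to 3′ on the gene's strand. Capitals mark the CHR element (TTTGAA or TTCGAA), the CCAAT box (CCAAT), and E2F sites (TTTCCCGC, TTTCGCGC, TTTGCCGC or TTTGGCGC), on either strand, also where motifs overlap. Mki67 lies on chr7:135716380-135716579, minus strand, and Cdk1, the kinase that drives entry into mitosis, on chr10:69352913-69353112, minus strand. Ube2c, an enzyme that marks mitotic proteins for destruction, lies on chr2:164769729-164769928, Kif11, the motor that pushes spindle poles apart, on chr19:37376182-37376381, and Topbp1, an activator of the replication checkpoint, on chr9:103305127-103305326, all on the plus strand.
Mki67: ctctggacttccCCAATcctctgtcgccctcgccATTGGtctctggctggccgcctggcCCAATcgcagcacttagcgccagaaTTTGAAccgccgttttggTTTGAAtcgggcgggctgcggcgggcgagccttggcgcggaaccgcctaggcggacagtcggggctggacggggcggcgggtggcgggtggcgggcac
Cdk1: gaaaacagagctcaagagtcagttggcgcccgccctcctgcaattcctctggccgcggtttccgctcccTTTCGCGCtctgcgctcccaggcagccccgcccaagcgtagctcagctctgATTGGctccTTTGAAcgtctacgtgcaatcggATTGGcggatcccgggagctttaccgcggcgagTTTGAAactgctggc
Ube2c: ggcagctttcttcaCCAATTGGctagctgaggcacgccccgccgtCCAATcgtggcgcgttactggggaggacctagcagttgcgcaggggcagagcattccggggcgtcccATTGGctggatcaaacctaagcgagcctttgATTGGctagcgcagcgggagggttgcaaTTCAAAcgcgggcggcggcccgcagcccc
Kif11: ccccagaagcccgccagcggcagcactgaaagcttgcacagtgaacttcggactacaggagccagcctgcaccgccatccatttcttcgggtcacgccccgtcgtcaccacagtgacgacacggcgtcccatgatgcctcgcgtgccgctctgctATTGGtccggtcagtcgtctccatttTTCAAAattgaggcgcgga
Topbp1: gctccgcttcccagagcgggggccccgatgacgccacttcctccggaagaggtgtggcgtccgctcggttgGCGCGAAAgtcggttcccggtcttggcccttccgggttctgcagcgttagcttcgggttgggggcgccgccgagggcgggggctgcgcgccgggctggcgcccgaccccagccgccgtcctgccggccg

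Mki67 had 2 CHR elements and 3 CCAAT boxes in this window, and Cdk1 had 2 CHR elements, 2 CCAAT boxes and 1 E2F site. Counted over windows of 250 bases before to 50 after the start, a CHR element stood in 23 of 26 promoters of the genes for spindle motors and cytokinesis (88.5%) and in 14 of 21 promoters of mitotic cyclins, kinases and proteolysis genes (66.7%), against 19.2% of all 32851 promoters. An E2F site stood in 8 of 17 promoters of licensing genes (47.1%), 7 of 19 of G1/S activators (36.8%) and 2 of 26 of the spindle genes (7.69%), against 2.26% of all promoters. The split was not clean. A CHR element also stood in 41.2% of the licensing genes' promoters, and genes of chromosome structure had CHR elements in 40% and E2F sites in 36%. CCAAT boxes stood in 65.4% of the spindle genes' promoters, in 60% of those of the CDK inhibitors, pocket proteins and growth arrest genes, and in 37.4% of all. Over the promoters of all genes measured on array A, 14.6% had a CHR element, 37.1% a CCAAT box and 3.38% an E2F site. Among the cell cycle genes on array A, a CHR element stood in 45.5% of the promoters of those called higher and in 26.1% of those not called, and an E2F site in 20.8% and 30.4%. For 86 of the 106 called and 40 of the 48 others a promoter was listed. These matches describe letters and were not tested.

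Origin licensing is the loading of the replicative helicase onto DNA before S phase. Of 16 measured licensing and firing genes, 12 were higher in the Mki67-high tumours and 0 were lower, with a median difference of 0.26. Mcm4, a subunit of the helicase, ran from 9.74 over a median of 10.02 to 10.30 in the Mki67-high tumours and from 9.31 over 9.64 to 9.98 in the Mki67-low tumours. All 17 Mki67-high tumours lay above the Mki67-low median, although the groups overlapped. The difference was 0.37 ± 0.05 (SE), or 1.29-fold, with an adjusted p of 0.000179. Dbf4, the activating subunit of the kinase that fires origins, differed by 0.46 ± 0.08 (adjusted p 0.000369), Cdt1, which loads the helicase, by 0.38 ± 0.06 (0.000286), and Gins1, a part of the active helicase, by 0.35 ± 0.06 (0.000796). Orc1, part of the complex that marks origins and named after its value was seen, differed by 0.09 and was not called. The brighter probe set of the kinase Cdc7 differed by 0.06 and was not called, and the dimmer one differed by 0.40 ± 0.06 (0.000286).

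Of 24 enzymes of DNA synthesis, 13 were higher and 0 lower, with a median of 0.19. Prim1, the small primase subunit that starts each new strand, had values of 9.45 to 9.90 with a median of 9.65 in the Mki67-high tumours and of 8.67 to 9.67 with a median of 9.36 in the Mki67-low tumours. It differed by 0.34 ± 0.06 (adjusted p 0.000685), and each of its 2 probe sets was called. Dut, which keeps uracil out of DNA, differed by 0.37 ± 0.07 (0.000979), Pola1, the catalytic subunit of the priming polymerase, by 0.33 ± 0.07 (0.00242), and Lig1, which joins the lagging strand, by 0.27 ± 0.05 (0.00143). Each of these 4 genes was higher in the mean of the Mki67-high tumours in 8 of 8 sublines that held both groups. Tyms, thymidylate synthase, differed by -0.06 with an adjusted p of 0.330 and is named after its value was seen. Its brightest probe set had a mean of 5.06 in the Mki67-high tumours and 5.13 in the Mki67-low tumours. The mean over bacterial control probe sets, taken here as absent transcripts, lay between 4.71 and 5.09 in each ranked tumour.

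Regulators of entry into S phase were called in part. Of 17 G1/S activators 5 were higher, and the median difference was 0.11. Skp2, which targets the inhibitor p27 for destruction, differed by 0.35 ± 0.08 (adjusted p 0.0045), with 5 of its 6 probe sets called higher. The atypical E2F family member E2f8 differed by 0.31 ± 0.05 (0.000435), the E2F partner Tfdp1 by 0.23 ± 0.05 (0.00274), Cdk2, the S-phase kinase, by 0.14 ± 0.04 (0.0156), and the growth factor-responsive transcription factor Myc by 0.22 ± 0.07 (0.0384). Myc lost its call when any 1 of 6 tumours was left out (highest adjusted p 0.0798). Several of the best known regulators, named after their values were seen, did not pass the test. Cyclin D1 (Ccnd1) differed by -0.14 ± 0.11, E2f1 by 0.05 ± 0.04, and Foxm1, a transcription factor of mitotic genes, by 0.02 ± 0.05, with adjusted p-values of 0.387, 0.357 and 0.819. No other probe set of these 3 genes was called either, and the smallest adjusted p among them was that of a dimmer Foxm1 probe set, 0.0556.

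Among 19 inhibitors of the cycle and growth arrest genes, 1 was higher and 1 lower, and the median difference was -0.11. Over all genes 7.59% were higher and 4.28% lower, so these calls do not set the list apart. Gadd45b, a stress-induced gene of growth arrest, ran from 8.27 over 8.64 to 8.77 in the Mki67-high tumours, against 8.54 over 8.80 to 9.23 in the Mki67-low tumours. No Mki67-high tumour reached the median of the Mki67-low tumours, and the difference was -0.25 ± 0.06 with an adjusted p of 0.00463. Only 1 of its 3 probe sets was called. The pocket protein Rbl1 (p107), itself an E2F target in cycling cells, was higher by 0.21 ± 0.06 (adjusted p 0.0151). Cdkn1a, which encodes the p53-induced inhibitor p21, differed by -0.52 ± 0.19 with an adjusted p of 0.0695 and was not called.

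Most genes of mitotic control were higher. Of 24 mitotic cyclins, kinases and proteolysis genes, 21 were higher in the Mki67-high tumours and 0 were lower, with a median of 0.33. Plk1, a kinase of mitotic entry and spindle assembly, ran from 9.28 over 9.65 to 10.05 in the Mki67-high tumours and from 8.59 over 9.20 to 9.52 in the Mki67-low tumours. The difference was 0.47 ± 0.07, or 1.38-fold, with an adjusted p of 0.000271. Cdk1 had 10.26 to 10.87 with a median of 10.45 in the Mki67-high tumours and 9.80 to 10.43 with a median of 10.15 in the Mki67-low tumours, a difference of 0.37 ± 0.06 (adjusted p 0.000193). All 17 Mki67-high tumours were above the Mki67-low median for both genes, and the same held for Ube2c (0.46 ± 0.08, adjusted p 0.00032), for the cyclin Ccnb2 (0.40 ± 0.06, 0.000286) and for the mitotic kinase Pbk (0.40 ± 0.06, 0.000193). All 5 were higher in 8 of 8 sublines. The exceptions to the list were Cks1b, Pkmyt1 and Pttg1, which differed by 0.15, 0.06 and -0.08 and were not called. Pttg1, the securin that holds sister chromatids until anaphase, was also the cell cycle gene with the smallest adjusted p among the sublines, 0.0177. A dimmer Pttg1 probe set was called higher in the Mki67-high tumours, by 0.30 ± 0.06 (0.00254).

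**Figure D3:**
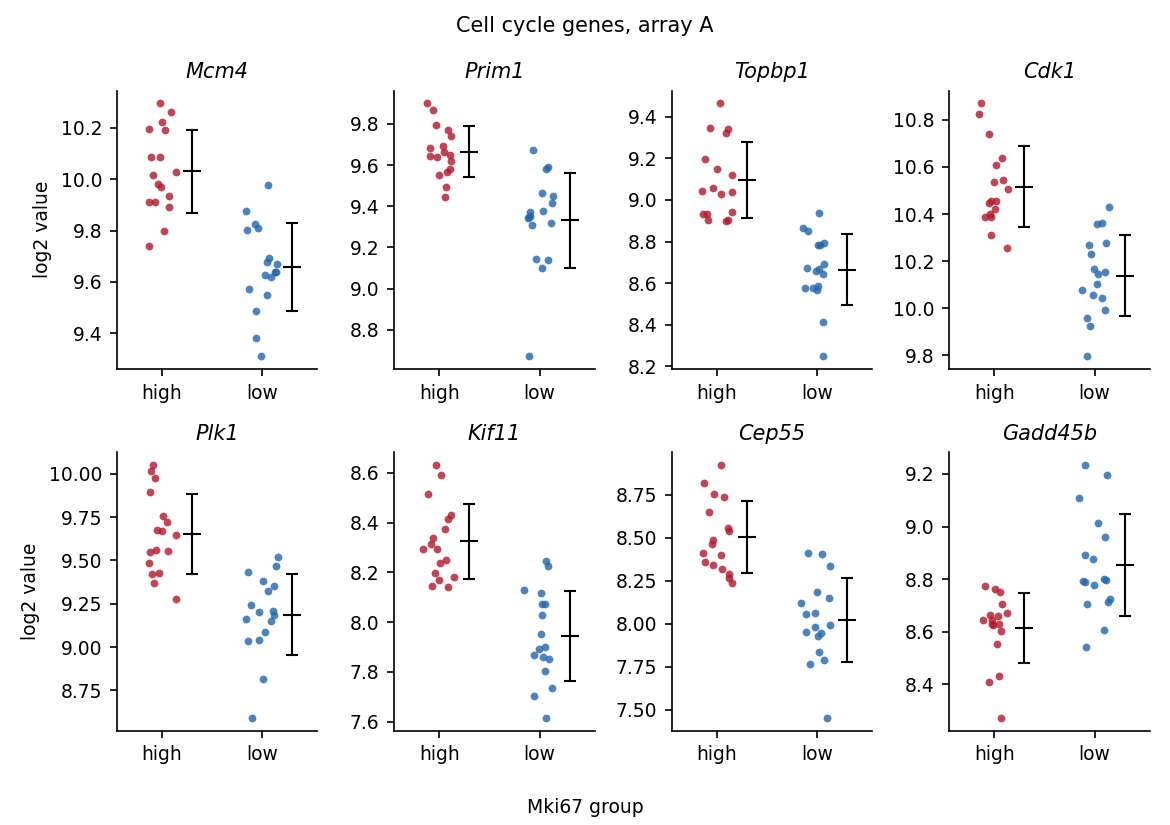
Log2 values on array A (y axis) of 7 cell cycle genes and of Gadd45b in the 17 Mki67-high tumours (red, left) and the 17 Mki67-low tumours (blue, right), 1 point per tumour, with the mean and SD beside them in black. The Mki67-high points of Plk1, Cdk1, Kif11 and Cep55 all lie above the middle of the Mki67-low points, and those of Gadd45b lie below it.

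At the kinetochore, the structure that ties chromosomes to the spindle, 12 of 18 genes were higher and 0 lower, with a median of 0.25. Cenpa, the histone that marks the centromere, differed by 0.39 ± 0.07 (adjusted p 0.000545), Cenpf, a kinetochore protein, by 0.39 ± 0.07 (0.000709) and Zwilch, a checkpoint protein, by 0.40 ± 0.06 (0.000218). For each of the 3 genes all 17 Mki67-high tumours exceeded the median of the Mki67-low tumours. Of 20 genes of spindle motors and cytokinesis 19 were higher, and Kif2c, a motor that takes microtubules apart, was the exception at 0.11 (adjusted p 0.172), although both of its next brightest probe sets were called, by 0.33 and 0.49. Cep55, which is needed for the final cut between daughter cells, ran from 8.23 over 8.46 to 8.92 in the Mki67-high tumours and from 7.45 over 7.99 to 8.41 in the Mki67-low tumours. It showed the largest difference of any cell cycle list member on array A, 0.49 ± 0.07 or 1.41-fold (adjusted p 0.000193). Kif11 differed by 0.37 ± 0.05 (0.00015), the cytokinesis motor Kif20a by 0.37 ± 0.06 (0.000356) and the hyaluronan and microtubule binding protein Hmmr by 0.39 ± 0.06 (0.000235).

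Most of the chromatin and repair genes were called higher. Of 18 genes of chromosome structure and chromatin assembly 13 were higher, with a median of 0.25, among them the condensin subunits Ncaph (0.33 ± 0.05, adjusted p 0.000286) and Ncapg2 (0.29 ± 0.06, 0.00202) and the maintenance DNA methyltransferase Dnmt1 (0.26 ± 0.05, 0.000712). Of 17 repair and checkpoint genes 11 were higher, with a median of 0.23. Topbp1 ran from 8.90 over 9.04 to 9.47 in the Mki67-high tumours and from 8.25 over 8.67 to 8.94 in the Mki67-low tumours. The highest Mki67-low tumour exceeded the lowest Mki67-high tumour by a narrow margin, and the difference was 0.43 ± 0.06, or 1.35-fold, with an adjusted p of 7.66e-05. The nuclease and helicase Dna2 differed by 0.32 ± 0.05 (0.000286) and the recombination protein Rad54l by 0.31 ± 0.06 (0.000796).

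The comparison within sublines gave similar sizes. With the subline as a fixed block, so that only the 21 tumours of the 8 sublines with both groups contribute, the median difference over the 154 cell cycle genes was 0.25 and 77 of them were called higher. By the sign of the difference of means, 57 of the 154 genes (37%) were higher in 8 of 8 sublines, against 2.86% of all genes. The number of called probe sets over the whole array was 666 higher and 365 lower in that fit.

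Genes that supply a dividing cell were read by further lists. Of 17 nuclear transport genes 12 were higher, with a median of 0.18. Among them were the nuclear pore protein Nup133 (0.27 ± 0.05, adjusted p 0.00162), the exchange factor Rcc1 (0.22 ± 0.05, 0.0047), the exporter Xpo1 (0.22 ± 0.05, 0.00984) and the GTPase Ran that drives this transport (0.17 ± 0.04, 0.00937). Of 19 genes of nucleotide and one-carbon synthesis 10 were higher, with a median of 0.14. Psph, the last enzyme of serine synthesis, differed by 0.30 ± 0.05 (0.000527), the mitochondrial and cytosolic serine hydroxymethyltransferases Shmt2 and Shmt1 by 0.31 ± 0.07 (0.00926) and 0.28 ± 0.07 (0.00771), and the purine enzyme Gart by 0.25 ± 0.06 (0.00891).

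Genes for making ribosomes and for the ribosome's own proteins were read apart. Of 23 biogenesis genes 13 were higher, with a median of 0.16, led by the nucleolar proteins Nolc1 (0.33 ± 0.06, adjusted p 0.000796) and Ncl (0.22 ± 0.04, 0.00164). All 3 probe sets of Nolc1 and all 4 of Ncl were called higher. Of 17 cytosolic ribosomal proteins, 0 were called in limma's test and the median difference was 0.00. The 5 with the smallest p-values, Rpl7, Rpl4, Rps24, Rps14 and Rpl19, lay between -0.07 and 0.05, and their probe sets were among the brightest, with mean values over the list of 12.89 to 13.02 in the Mki67-high tumours and 12.85 to 13.09 in the Mki67-low tumours.

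Of 22 respiratory chain genes 6 were higher, all 22 differences were positive and the median was 0.08. Over all genes 7.59% were higher and 5444 of 12392 differences were positive. Uqcrc2, a core protein of complex III, differed by 0.20 ± 0.04 (adjusted p 0.00331), Ndufs1 of complex I by 0.20 ± 0.04 (0.00353) and cytochrome c (Cycs) by 0.25 ± 0.07 (0.0154). Of 21 genes of hypoxia and glycolysis 0 were called, with a median of 0.06. Of 20 genes of sterol and fatty acid synthesis 6 were higher and 1 lower, with a median of 0.19. Thrsp, a promoter of milk fat synthesis, ran from 12.16 over 12.75 to 12.96 in the Mki67-high tumours and from 11.04 over 12.32 to 12.92 in the Mki67-low tumours, a difference of 0.47 ± 0.11 (0.00839). Idi1, an enzyme of the isoprenoid pathway, differed by 0.47 ± 0.10 (0.00221). The lower gene was Srebf2, the transcription factor of sterol synthesis (-0.12 ± 0.04, 0.0421), named after its value was seen, and 4 genes were higher and 0 lower without tumour 1 of subline 21. Transferrin receptor (Tfrc), which imports iron and stands in the list of erythroid markers, was higher by 0.43 ± 0.08 (0.000898), while Hba-a1, Epb42, Slc4a1 and Klf1 of that list lay between -0.14 and -0.06 and were not called. Without tumour 1 of subline 21, Klf1 was called lower (-0.16, adjusted p 0.049).

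Array B carries other probe sets and was hybridised separately, so the ranking did not use its values. There the Mki67-low group had 16 tumours, since tumour 3 of subline 11 was left out by the rule. Its array B had a median correlation of 0.865 with the other arrays B. With it kept, 60 probe sets were higher and 5 lower, and the calls of Tm4sf1, Wwp2, Clspn, Spc24, Sgo2a and Ckap2l on array B were lost (adjusted p 0.129, 0.25, 0.102, 0.0751, 0.138 and 0.102). Of 22511 probe sets, 90 were called (0.4%), 84 higher (0.373%) and 6 lower (0.0267%), in the Mki67-high tumours. By the brightest probe set of each gene, 0.729% of 9607 genes were called, 0.687% higher and 0.0416% lower. Of the 82 cell cycle genes measured there, 15 were higher and 0 lower, and 71 differences were positive with a median of 0.09. For 8 of them (9.76%) all 17 Mki67-high tumours lay above the median of the Mki67-low tumours, against 0.552% of all genes.

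Bub1b, a kinase of the spindle checkpoint, ran on array B from 8.27 over 8.62 to 9.18 in the Mki67-high tumours and from 7.81 over 8.22 to 8.47 in the Mki67-low tumours. The difference was 0.55 ± 0.08, or 1.46-fold, with an adjusted p of 0.00111, and all 17 Mki67-high tumours lay above the Mki67-low median. A second, dimmer Bub1b probe set of the array gave -0.07 and was not called. Cenpe, the kinetochore motor that aligns chromosomes, ran from 7.94 over 8.25 to 8.59 in the Mki67-high tumours and from 7.54 over 7.84 to 8.09 in the Mki67-low tumours. It differed by 0.41 ± 0.06 (adjusted p 0.00111), and was higher in 8 of 8 sublines, as was Bub1b. Further called genes of mitosis were the centrosome kinase Nek2 (0.45 ± 0.07, 0.00196), separase (Espl1, 0.37 ± 0.06, 0.00265), the inhibitor of anaphase proteolysis Fbxo5 (0.36 ± 0.07, 0.0138) and the kinetochore protein Cenpi (0.28 ± 0.06, 0.0138). Cdca8, a subunit of the chromosomal passenger complex, was called by 2 of its 3 probe sets, the largest difference being 0.45 ± 0.09 (0.0138).

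Of the S-phase genes on array B, the helicase subunit Mcm5 differed by 0.43 ± 0.09 (adjusted p 0.0187), the E2F family repressor E2f7 by 0.33 ± 0.06 (0.00241), Dnmt1 by 0.31 ± 0.06 (0.00573) and the checkpoint adaptor Clspn by 0.26 ± 0.05 (0.0187). The calls of Spc24, Sgo2a and Fancb on array B were lost when any 1 of 14, 14 and 11 tumours was left out, in Spc24 also without tumour 1 of subline 21 (0.058).

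**Figure D4:**
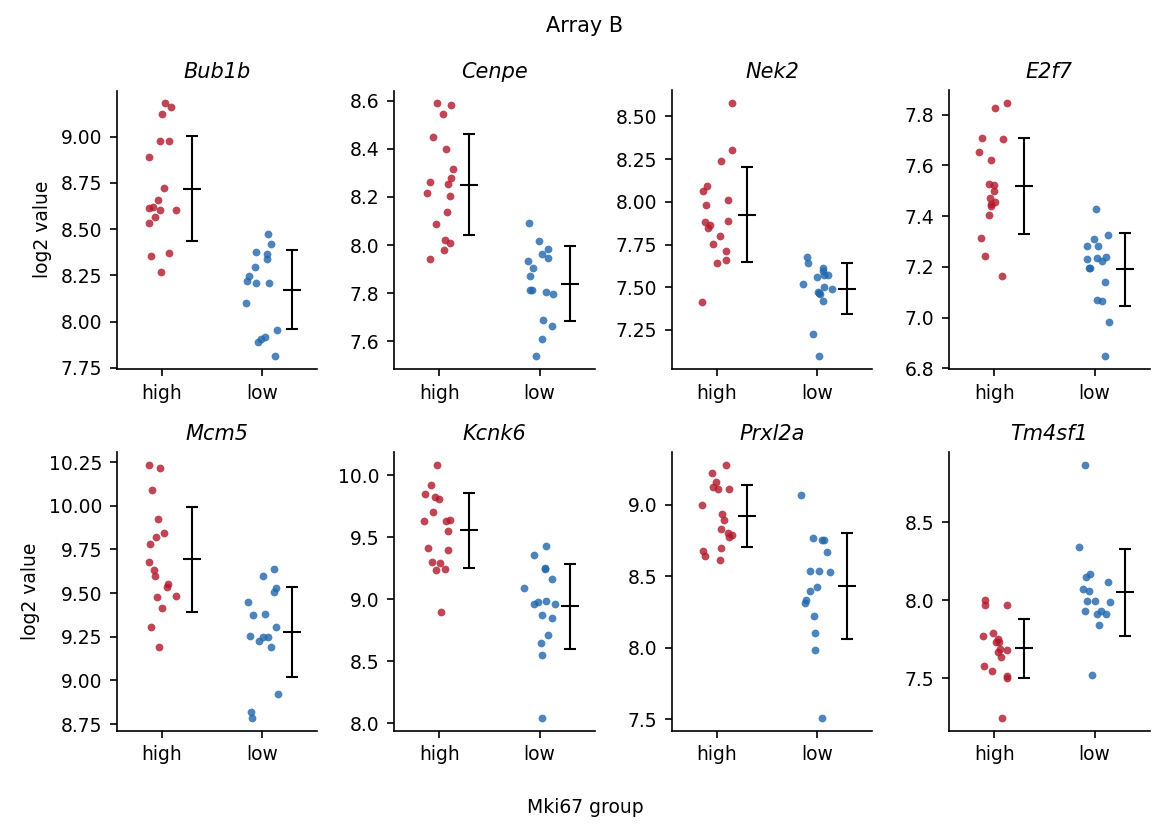
Log2 values on array B (y axis) of 8 genes in the 17 Mki67-high tumours (red, left) and the 16 Mki67-low tumours (blue, right), 1 point per tumour, with the mean and SD in black. The Mki67-high points of Bub1b and Cenpe all lie above the middle of the Mki67-low points, and 16 of 17 Mki67-high points of Tm4sf1 lie below it.

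Array B also held higher genes outside the cell cycle. Kcnk6, a potassium leak channel, had the largest called difference there. It ran from 8.89 over 9.63 to 10.08 in the Mki67-high tumours and from 8.04 over 8.97 to 9.43 in the Mki67-low tumours, a difference of 0.64 ± 0.10 or 1.56-fold (adjusted p 0.00158), and was higher in 8 of 8 sublines. Prxl2a, a peroxiredoxin-like redox protein, was called on both arrays. On array A it ran from 9.25 over 9.63 to 10.06 in the Mki67-high tumours and from 8.35 over 9.17 to 9.78 in the Mki67-low tumours, a difference of 0.57 ± 0.09 (adjusted p 0.000319). On array B the difference was 0.52 ± 0.10 (0.00573), and on each array all 17 Mki67-high tumours exceeded the Mki67-low median. A second Prxl2a probe set of array A, with a mean of 5.44 in the Mki67-high tumours, gave -0.05.

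The genes named as lower on array B were Wwp2, Tm4sf1, Paqr6 and Cetn4. The last 2, at -0.36 ± 0.08 (adjusted p 0.0364) and -0.16 ± 0.04 (0.0487), lost their call when any 1 of 14 and 23 tumours was left out. Tumour 1 of subline 21 was among them for both genes (adjusted p 0.0699 for Cetn4 without that tumour). Tm4sf1, a tetraspanin-like surface protein, ran from 7.24 over 7.69 to 8.003 in the Mki67-high tumours and from 7.52 over 7.997 to 8.87 in the Mki67-low tumours on array B, a difference of -0.36 ± 0.08 (adjusted p 0.0242), a call lost without tumour 2 of subline 2 (0.0538). On array A both of its probe sets were called lower, by -0.45 ± 0.08 and -0.24 ± 0.05 (0.000807 and 0.00238). Wwp2, a ubiquitin ligase that binds to cartilage transcription factors, was lower by -0.50 ± 0.12 on array B (0.0487), where the call was lost when any 1 of 25 tumours was left out, tumour 1 of subline 21 among them (0.0564), and all 3 of its probe sets on array A were called lower.

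The 100 probe sets on both arrays let the same probes be read in both hybridisations. Of these, 14 were called on array A and 1 on array B, against 10.6% and 0.4% of all probe sets. At an unadjusted p under 0.05 there were 34 and 27 of the 100. Over all 22625 probe sets of array A that threshold gave 3297 higher and 3525 lower. Over all 22511 of array B it gave 1409 higher and 1040 lower. The median SE of the shared probe sets was 0.0448 on array A and 0.0601 on array B, whereas over all probe sets it was 0.0503 and 0.0431. The median difference of the shared probe sets was 0.056 on array A and 0.072 on array B, against -0.019 and -0.003 over all probe sets. Psph differed by 0.30 ± 0.05 on array A (adjusted p 0.000527) and by 0.31 ± 0.07 on array B (0.052), where it was called without tumour 1 of subline 21 (0.34, adjusted p 0.0271). The median of all probe sets was 7.87 on array A and 6.35 on array B. On array B the mean over bacterial control probe sets, taken here as absent transcripts, lay between 4.59 and 4.88 in each tumour.

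The largest called differences on array A were those of milk proteins. Csn1s2a, a casein, ran from 6.68 over 11.26 to 12.76 in the Mki67-high tumours and from 5.73 over 8.71 to 12.69 in the Mki67-low tumours. The ranges of the groups overlapped almost completely, 13 of 17 Mki67-high tumours were above the Mki67-low median, and the difference was 1.80 ± 0.56 or 3.48-fold (adjusted p 0.0351). Wap, the whey acidic protein, ran from 10.45 over 12.24 to 13.77 in the Mki67-high tumours and from 9.87 over 11.26 to 13.25 in the Mki67-low tumours, a difference of 1.10 ± 0.28 or 2.15-fold (0.0122). Csn1s1 differed by 1.23 ± 0.38 (0.0347), and the dimmer probe set of Csn2 by 1.604 ± 0.51 (0.0394), while the brighter one gave 1.47 and an adjusted p of 0.0679.

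Among 15 milk and lactation genes, 4 were higher and 0 lower, with a median of 0.25. Csn3 and Lalba, named after their values were seen, differed by -0.003 and -0.10, with mean values of 14.35 and 13.83 in the Mki67-high tumours and 14.36 and 13.98 in the Mki67-low tumours. Without tumour 1 of subline 21, Wap stayed called (0.998, adjusted p 0.0256) and Csn1s2a, Csn1s1 and Csn2 did not (1.70, 1.11 and 1.52, adjusted p 0.0557, 0.0589 and 0.0591). The calls of Csn1s2a, Csn1s1 and Csn2 were lost when any 1 of 9, 6 and 14 tumours was left out, tumour 1 of subline 21 among them. Of 20 luminal epithelial genes only the tight junction gene Cldn4 was called, at 0.54 ± 0.15 (0.0201), and the median was 0.06. Over all genes 7.59% were called higher.

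Other genes with large positive differences were Gjb2, a gap junction protein of secretory epithelium (0.61 ± 0.18, adjusted p 0.0287), the meiotic recombination and ubiquitin ligase gene Ccnb1ip1 (0.67 ± 0.19, 0.0207), and Saa1 and Saa2, the acute phase serum amyloid proteins. Saa2 ran from 10.36 over 11.61 to 13.28 in the Mki67-high tumours and from 9.14 over 11.33 to 11.87 in the Mki67-low tumours. Saa1 and Saa2 are near-identical genes whose probes may not tell them apart. Their calls were lost when any 1 of 21 and 8 tumours was left out. Tumour 1 of subline 21 was among them for both genes (adjusted p 0.0747 and 0.0607 without that tumour).

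**Figure D5:**
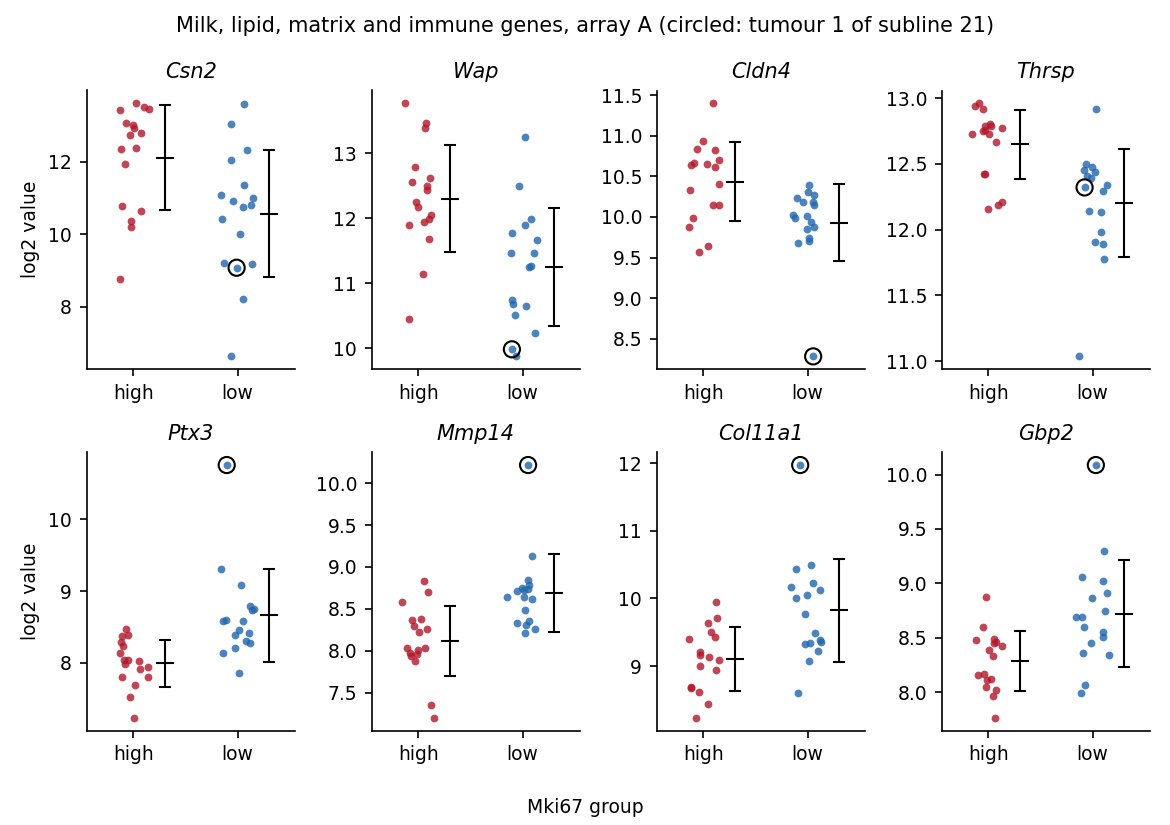
Log2 values on array A (y axis) of 8 genes in the 17 Mki67-high tumours (red, left) and the 17 Mki67-low tumours (blue, right), 1 point per tumour, with the mean and SD in black and tumour 1 of subline 21 circled. The circled tumour is the highest of both groups for Ptx3, Mmp14, Col11a1 and Gbp2 and the lowest for Cldn4.

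The genes described next were among the 12 largest negative differences of called genes on array A, and were not chosen as a group. Ptx3, a secreted pattern recognition protein, ran from 7.22 over 8.02 to 8.46 in the Mki67-high tumours and from 7.85 over 8.57 to 10.76 in the Mki67-low tumours. No Mki67-high tumour reached the Mki67-low median, the gene was lower in 8 of 8 sublines, and the difference was -0.74 ± 0.16 (adjusted p 0.00435). Tumour 1 of subline 21 had the highest value, and without it the difference was -0.58 (0.00222). Mmp14, a membrane-bound collagenase, ran from 7.19 over 8.04 to 8.83 in the Mki67-high tumours and from 8.21 over 8.64 to 10.22 in the Mki67-low tumours, a difference of -0.60 ± 0.14 (0.00812), and -0.48 (0.0111) without that tumour.

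Col11a1, a collagen of cartilage, ran from 8.23 over 9.14 to 9.94 in the Mki67-high tumours and from 8.61 over 9.77 to 11.97 in the Mki67-low tumours, and both of its probe sets were lower, the first by -0.80 ± 0.20 (adjusted p 0.0111). Col2a1, the main cartilage collagen, differed by -0.82 ± 0.27 (0.0463). Tumour 1 of subline 21 had 12.19, and the other Mki67-low tumours did not pass 9.60. Without it the difference was -0.52 and still called (0.0394), and the Col2a1 call was lost when any 1 of 21 other tumours was left out. The cartilage and melanoma protein Mia (-0.72 ± 0.21, 0.031), the matrix protein Smoc1 (-0.54 ± 0.14, 0.0149), the matrix remodelling protein Mxra8 (-0.54 ± 0.16, 0.0308) and the protease inhibitor cystatin C (Cst3, -0.61 ± 0.16, 0.0158) were lower as well. The Mia call was lost without tumour 3 of subline 16 (0.0554). The calls of Mmp16, Slpi and Lgals3bp were lost when any 1 of 15, 22 and 6 tumours was left out. Tumour 1 of subline 21 was among them for each gene (adjusted p 0.0701, 0.0816 and 0.0542 without that tumour).

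General fibroblast and matrix markers gave no call. Of 21 such genes 0 were called in limma's test and 20 had a negative difference, with a median of -0.18. Of the 5 with the smallest p-values, Mmp2 differed by -0.44 ± 0.19 (adjusted p 0.112) and Sparc by -0.31 ± 0.12 (0.0742).

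Interferon-stimulated genes, the antiviral and antigen-processing set, had negative differences and few calls. All 20 measured genes had a negative difference with a median of -0.26, whereas 5444 of all 12392 genes had a positive one. Against 4.28% of all genes, 3 of the 20 were called lower. These were the immunoproteasome subunits Psmb8 (-0.45 ± 0.12, adjusted p 0.0158) and Psmb9 (-0.42 ± 0.14, 0.0421) and the guanylate-binding protein Gbp2 (-0.47 ± 0.13, 0.0242). Psmb8 ran from 9.56 over 10.04 to 10.55 in the Mki67-high tumours and from 9.79 over 10.42 to 11.60 in the Mki67-low tumours. Without tumour 1 of subline 21, Psmb9 was not called (-0.30, 0.0604), and its call was lost when any 1 of 13 tumours was left out, that tumour among them. In the list of p53 targets and apoptosis the death receptor Fas (-0.15 ± 0.04, 0.0234) and the survival gene Bcl2 (-0.19 ± 0.06, 0.0445) were lower among 18 genes. Over all genes 4.28% were lower. The Bcl2 call was lost when any 1 of 15 tumours was left out (highest adjusted p 0.0853). None of the 20 immediate early genes was called in limma's test.

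Markers of other cell types gave few calls. Over all genes 7.59% were called higher and 4.28% lower, and 5444 of 12392 had a positive difference. Of 18 macrophage genes 17 had a negative difference, with mean log2 levels over the list of 8.30 to 9.45 in the Mki67-high tumours and 8.71 to 9.40 in the Mki67-low tumours, a median difference of -0.16 and 0 calls. C1qc, a complement subunit made by macrophages, differed by -0.31 ± 0.11 (adjusted p 0.0575). All 17 skeletal muscle genes had a positive difference, with levels of 6.90 to 11.51 in the Mki67-high tumours and 6.88 to 11.68 in the Mki67-low tumours, a median of 0.38 and 0 calls. The smallest adjusted p of these was that of Mb, 0.25. For T and NK cells, levels were 6.48 to 6.90 in the Mki67-high tumours and 6.57 to 6.88 in the Mki67-low tumours. All 17 differences were negative, and Ncr1 alone was called lower (-0.16 ± 0.05, 0.0417). The Ncr1 call was lost when any 1 of 16 tumours was left out, tumour 1 of subline 21 among them (0.0741 without that tumour). Fibroblast levels were 9.01 to 11.09 in the Mki67-high tumours and 9.92 to 10.86 in the Mki67-low tumours. Adipocyte levels were 7.12 to 9.25 in the Mki67-high tumours and 6.95 to 9.49 in the Mki67-low tumours, with a median of 0.12 and 0 calls. Mean levels of basal and myoepithelial, endothelial, B and plasma cell, neutrophil and keratinocyte lists overlapped between the groups, with 0, 0, 0, 1 and 0 calls.

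With the mean levels of adipocyte, muscle, T and NK cell, and B and plasma cell genes as covariates, 145 probe sets were higher and 13 lower on array A. On array B 0 of 22511 were called either way in limma's test, with 737 higher and 453 lower at an unadjusted p under 0.05. Without the covariates 1409 were higher and 1040 lower at that threshold, which also passes probe sets with no difference. The median difference of the 154 cell cycle genes was 0.21 in the fit with covariates, and 46 of them were called higher. In the same fit 1 nuclear transport gene, 1 ribosome biogenesis gene and 1 sterol and fatty acid gene were called higher, with medians of 0.17, 0.14 and 0.13. For nucleotide and one-carbon synthesis 2 were called higher, with a median of 0.13. Respiratory chain, milk and interferon-stimulated genes had 0 calls in limma's test, with medians of 0.04, 0.22 and -0.20. The part of the markers in these results was not tested.

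In the 18 middle tumours, whose Mki67 lay between 9.90 and 10.10 with an SD of 0.07, the fitted slope was scaled to the difference between the groups. The median over the 154 cell cycle genes was 0.24 there, against 0.24 between the groups. Of 22625 probe sets of array A, 0 were called either way in limma's test over the middle tumours. At an unadjusted p under 0.05, 511 were higher and 313 lower, against 3297 and 3525 between the groups. On array B 55 probe sets were called higher and 27 lower over the middle tumours. Most marker lists of other cell types had medians further from 0 over the middle tumours than between the groups, with 0 calls in limma's test. The luminal, basal and keratinocyte lists did not. The 4 furthest medians were -1.62 for skeletal muscle, -1.51 for adipocytes, -0.96 for macrophages and -0.84 for fibroblasts and matrix. Between the groups these were 0.38, 0.12, -0.16 and -0.18. Endothelial cells had -0.50 against -0.04, and neutrophils -0.30 against -0.05. Their part in the cell cycle value was not tested.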

How the data were processed

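Total RNA of whole tumours was hybridised to MOE430A and MOE430B arrays, per the labels' protocols. The log2 values deposited by the authors come from RMA, a multi-array summary of probe signals, per the submitters' processing notes. Those name no version, probe definition or build. Values were used as deposited (columns of other series: 0). The 64 control probe sets of each array and Mki67 were set aside. Symbols came from the platform annotation, updated through RefSeq (GRCm38.p6).

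Mki67-high minus Mki67-low was fitted in limma 3.58.1 (R 4.3.3) with the subline as a random block (estimated correlation 0.157 on array A and 0.096 on array B). P-values were adjusted by Benjamini-Hochberg within each array. The members, the 32 gene lists and the tests were chosen with earlier results of these data known. Named genes were the 12 largest called differences each way on array A and 8 on array B, with a group mean of at least 7, and the 5 smallest p-values of each list. The labels call the tumours biological replicates. No depth applies to arrays, and the number of tumours limits the precision. Alternative settings are given in the closing section. Figures were drawn with matplotlib 3.10.9 in Python 3.11.15.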

Additional observations from a re-analysis of the deposited data

How the results depend on the processing

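The counts of called probe sets depended on the setting, given here as higher and lower on array A and then higher and lower on array B, against 1528 and 866, then 84 and 6, as reported. They were 1237 and 566, then 55 and 1, without a block; 666 and 365, then 189 and 14, with the subline as a fixed block; 975 and 350, then 271 and 42, with 26 tumours against 26; and 3420 and 3046, then 440 and 99, as a slope over 52 tumours. They were 0 and 0, then 55 and 27, over the 18 middle tumours; 1447 and 445, then 171 and 15, without the dimmer probe sets; 976 and 534, then 66 and 7, after quantile normalization; and 1770 and 553, then 67 and 1, after median centring. With 13 against 13 they were 1702 and 1297, then 105 and 1, and with array quality weights 1296 and 910, then 48 and 4. With composition covariates they were 145 and 13, then 0 and 0, with all 56 tumours ranked 421 and 92, then 185 and 26, and with the Gapdh control as a covariate, an alternative added after seeing the data, 976 and 320, then 62 and 2. With tumour 3 of subline 11 kept, added likewise, array B had 60 and 5. The replicate block gave 1478 and 735, then 64 and 1. The labels number tumours only within a subline, so the numbers pair nothing, and the block left 107 of the 154 cell cycle genes higher on array A. Of these 154 genes, 106 in the report, 0 were called over the middle tumours, 46 with composition covariates, 57 with all 56 tumours ranked, and 77 to 130 in each other setting that kept the replicates. All tumours of 1 replicate number were also left out together (number 4 occurs in neither group). Without number 1, 2 or 3 there were 98 to 564 higher and 2 to 185 lower on array A. On array B there were 1 to 12 higher and 0 lower, and 29 to 83 cell cycle genes were called higher on array A. At 0 lower on array B, limma gave 974, 370 and 924 of 22511 probe sets at an unadjusted p under 0.05 without replicates 1, 2 and 3. The reported fit gave 1040 lower at that threshold, which also passes probe sets with no difference. Leaving out single tumours, also added after seeing the data, gave 1097 to 1714 higher and 442 to 1204 lower on array A, and 45 to 132 higher and 0 to 8 lower on array B. The lower calls of array A moved over 1.5 times without tumour 2 of subline 16 (442), tumour 2 (452) or 1 (557) of subline 2, tumour 1 of subline 27 (501), tumour 3 of subline 16 (538) or tumour 3 of subline 24 (561). On array B 10 tumours moved the higher calls that far and 20 the lower calls. Of 99 named calls on array A, 79 held without each tumour in turn, and 16 of 25 on array B. Signs of named calls reversed only over the middle tumours, in Csn1s1 (-0.32), Wap (-1.62), Saa2 (-2.63), Saa1 (-2.30), Gjb2 (-0.48), Cel (-1.36), Cldn4 (-0.088), Tfrc (-0.34), Incenp (-0.16), Cycs (-0.17), Uqcrc2 (-0.040), Uqcrfs1 (-0.042), Ddx21 (-0.068), Acly (-0.074), Lss (-0.087), Ppp1r3c (0.077), Smoc1 (0.69), Mmp16 (0.34), Mmp14 (0.30), Mia (1.24), Ptx3 (2.08) and Fas (0.075) on array A and Paqr6 (0.84) and Wwp2 (0.85) on array B. The cause was not tested. Ranking by another Mki67 probe set was not run, since array A has 1 and array B has 0.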

Other observations

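A pair of neighbouring genes was higher on separate arrays. Dmkn (dermokine) on array A and Sbsn (suprabasin) on array B, both secreted proteins of stratified epithelium, lie next to each other in the RefSeq gene table. Dmkn ran from 7.55 over 9.55 to 10.84 in the Mki67-high tumours and from 7.13 over 8.97 to 10.17 in the Mki67-low tumours, a difference of 0.72 ± 0.24 (SE) with an adjusted p of 0.0474. Sbsn ran from 9.24 over 9.86 to 11.06 in the Mki67-high tumours and from 8.41 over 9.42 to 9.86 in the Mki67-low tumours, a difference of 0.60 ± 0.14 (0.0401). Both were higher in 8 of 8 sublines, and both calls were lost when any 1 of 21 and 17 tumours was left out, tumour 1 of subline 21 among them. The mean level of the 16 keratinocyte genes was 8.38 in tumour 3 of subline 16 and 7.345 in tumour 2 of subline 2, both Mki67-high, and at most 6.902 in the other ranked tumours. Both calls were also lost without either of these 2 tumours, and the part of this level in the result was not tested. Only 1 of the 3 Sbsn probe sets was called. Krtdap, the next gene of the cluster, differed by 0.21 ± 0.18 (0.44), and of 16 keratinocyte genes on array A 0 were called in limma's test.

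Cxcr2, a neutrophil chemokine receptor, was the called gene among 13 of the neutrophil list, against 4.28% of all genes called lower. Cxcr2 differed by -0.16 ± 0.05 (adjusted p 0.0489), and the call was lost when any 1 of 23 tumours was left out.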
